A study of Mus musculus with 4 samples.

Results

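Polyamine synthesis and catabolism was followed through 10 genes, which were taken by symbol from the 39179 genes counted in each library. They are *Odc1*, *Amd1*, *Srm* and *Sms* for synthesis, *Oaz1*, *Oaz2* and *Azin1* for the control of ornithine decarboxylase, and *Sat1*, *Smox* and *Mtap* for catabolism and salvage. All 10 passed the filter on low counts. B16F1 is an established mouse melanoma cell line, and tumor repopulating cells (TRCs) are the spheroids that single B16F1 cells formed in soft 3D fibrin gels of 90 Pa, isolated on day 5. Their controls were parental B16F1 cells. RNA-seq was available for 2 libraries of each, numbered 1 and 3 in both groups. Most cells seeded into such gels die, so the selection of cells and the change of culture cannot be told apart in this comparison. It is likewise not possible in bulk RNA to separate a shift in the mix of cells from a shift in the RNA of each cell.

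Putrescine, spermidine and spermine are small positively charged molecules that bind nucleic acids and are needed for translation and growth. ODC, the product of *Odc1*, makes putrescine from ornithine. The enzyme encoded by *Amd1* decarboxylates S-adenosylmethionine, and spermidine synthase (*Srm*) and spermine synthase (*Sms*) use its product to lengthen putrescine stepwise. SAT1 acetylates spermidine and spermine for export or oxidation, SMOX oxidizes spermine back to spermidine, and MTAP cleaves the methylthioadenosine that both synthases release. The antizymes OAZ1 and OAZ2 bind ODC and deliver it to the proteasome, whereas the antizyme inhibitor AZIN1 resembles ODC, has lost its activity and captures antizyme. *Odc1* is a classical target gene of MYC, and many tumors run this pathway at a high rate.

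In TRCs the RNA of *Odc1*, the gene of the first enzyme, and of *Srm*, the gene of spermidine synthase, was lower. *Odc1*, *Srm* and *Mtap* were downregulated at FDR under 0.05, and 0 of the 10 genes were upregulated. The other 7 did not pass the test. An unadjusted p under 0.05 was found for 5 of the 10, and for 3220 of all 11483 genes tested. Of all 11483 genes tested, 15.9% were called, 7.05% lower and 8.81% higher in TRCs, so 3 of 10 lower genes compare with 7.05%. The 10 genes had a median change of −0.15 on the log2 scale, against 0.0034 over all genes tested. Levels are given as CPM (counts scaled to 1000000 per library) after TMM normalization, with replicate 1 before replicate 3 in each pair of values. Fold changes and FDR come from edgeR's exact test over all genes tested, and standard errors (SE) come from DESeq2.

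**Figure D1:**
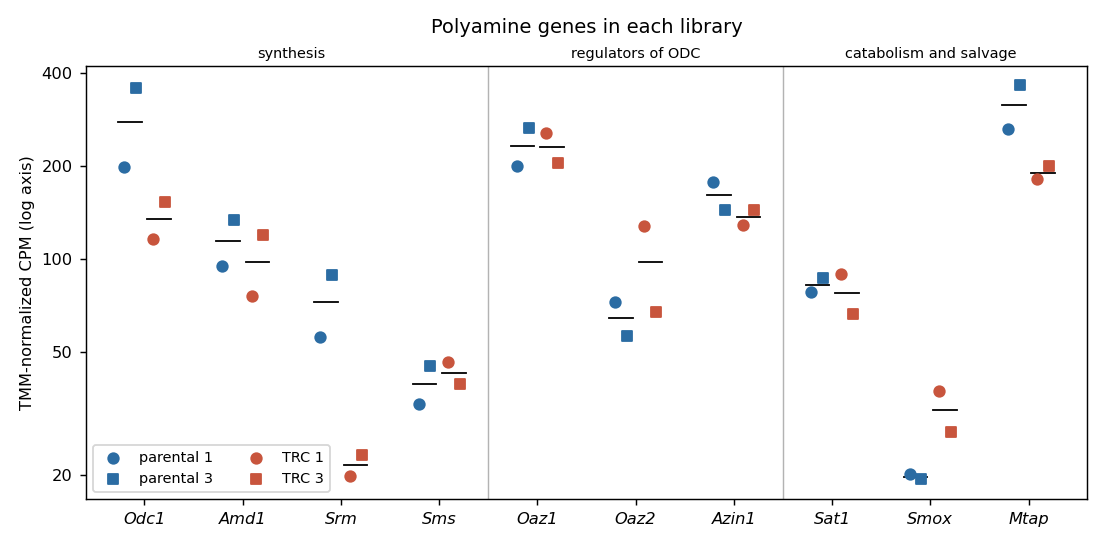
Level of each of the 10 polyamine genes in each library, as TMM-normalized CPM on a log axis, with parental libraries in blue, TRC libraries in red and black bars for the mean of 2 libraries. For *Odc1*, *Srm* and *Mtap* both red points lie below both blue points, and for *Smox* both lie above.

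*Odc1* (ENSMUSG00000011179, chromosome 12 from 17544794 to 17551505, plus strand, GRCm38), the gene of the first enzyme of the pathway, had 199 and 358 CPM in the parental libraries. In the TRC libraries it stood at 116 and 154 CPM. Both TRC libraries thus lay below both parental libraries, although the parental libraries differed by a factor of 1.80. *Odc1* fell from 279 ± 112 CPM to 135 ± 26.5 CPM (SD, n = 2 each), a log2 fold change of −1.05 (SE 0.30, FDR = 0.0053), or 2.07-fold lower. This call rested on the spread of few libraries. In edgeR's quasi-likelihood test its FDR was 0.0602, and without parental replicate 3 or TRC replicate 1 the log2 fold change was −0.56 (FDR = 0.263) or −0.87 (FDR = 0.167).

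*Srm* (ENSMUSG00000006442, chromosome 4 from 148591503 to 148594993, plus strand) changed most among the 10 genes. Its level was 56.3 and 88.9 CPM in the parental libraries, and 19.8 and 23.3 CPM in the TRC libraries. The gap between the groups was larger than the spread within either of them. *Srm* fell from 72.6 ± 23.1 CPM to 21.6 ± 2.43 CPM (SD, n = 2 each), a log2 fold change of −1.75 (SE 0.28, FDR = 2.04e-08) or 3.36-fold lower. It was called under all 13 other settings with a test, with log2 fold changes from −2.04 to −1.38 when single libraries were left out. None of the 1239 windows of 100 bases in its longest transcript occurs in a transcript of another annotated gene.

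*Amd1* (ENSMUSG00000075232, chromosome 10 from 40287458 to 40302186, minus strand), which supplies the aminopropyl donor, had 94.9 and 134 CPM in the parental libraries and 76.4 and 120 CPM in the TRC libraries. The groups overlapped, and the log2 fold change was −0.22 (SE 0.29, FDR = 0.66), with an unadjusted 95% interval from −0.78 to 0.35. Its level is the least certain of the 10. Of its 3105 windows of 100 bases, 76.4% also occur in *Amd2* or in processed pseudogenes, so a read from such a window cannot be placed in 1 gene. *Amd2*, its near-identical copy, had between 2 and 13 counts per library. *Sms* (ENSMUSG00000071708, chromosome X from 157443855 to 157492287, minus strand) had 33.9 and 45.2 CPM in the parental libraries and 46.5 and 39.4 CPM in the TRC libraries. Here too the groups overlapped, and the log2 fold change was 0.12 (SE 0.25, FDR = 0.809), with an interval from −0.37 to 0.62.

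RNA counts do not show how much *Amd1* message is translated. A short upstream reading frame in its leader, known to hold back translation when polyamines are abundant, was read from the RefSeq sequence (GRCm38.p6, chromosome 10 from 40302155 to 40302175, minus strand) and is shown because it acts after the step measured here. Capitals mark its start and stop codons.
*Amd1* upstream reading frame: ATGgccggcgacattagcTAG

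The shares of the 4 synthesis genes within a library differed between the groups, with no overlap for any of them. These shares were not tested, and 60.6% of single genes tested did not overlap either. As parts of a common sum the shares do not move independently, and the CPM of *Amd1* and *Sms* themselves overlapped between the groups. Per kilobase of the longest transcript, *Srm* made up 24.6% and 23.5% of their summed CPM in the parental libraries, and 14.3% and 12.9% in the TRC libraries. *Amd1* made up 17.3% and 14.8% in the parental libraries and 23.0% and 27.8% in TRCs, with the limit on its counts given above. *Sms* made up 5.33% and 4.30% in the parental libraries and 12.1% and 7.85% in TRCs. *Odc1* held the largest part throughout, at 52.8% and 57.4% in the parental libraries and 50.7% and 51.5% in TRCs.

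Counted per kilobase, *Srm* was 4.61 and 5.46 times as abundant as *Sms* in the parental libraries, but 1.18 and 1.64 times in the TRC libraries. The mean ratio was 5.04 ± 0.60 in parental cells and 1.41 ± 0.32 in TRCs (SD, n = 2 each). The 2 enzymes act one after the other, so this ratio compares the genes of consecutive steps, and it was 3.56-fold lower in TRCs. It largely restates the lower *Srm* (log2 fold change −1.75), since *Sms* had a log2 fold change of 0.12. The ratio was not tested. A ratio within a library does not depend on how libraries were scaled.

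**Figure D2:**
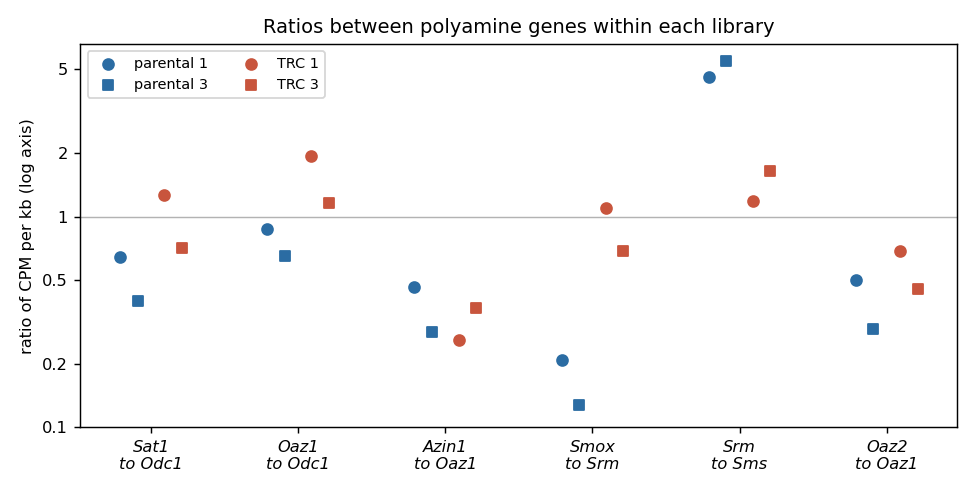
Ratio of CPM per kilobase between pairs of polyamine genes within each library, on a log axis, with parental libraries in blue and TRC libraries in red. *Srm* to *Sms* was between 4.61 and 5.46 in parental cells and between 1.18 and 1.64 in TRCs, while *Azin1* to *Oaz1* and *Oaz2* to *Oaz1* overlapped between the groups.

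Of the regulators of ODC, none passed the test. *Oaz1* (ENSMUSG00000035242, chromosome 10 from 80826656 to 80829290, plus strand), the main antizyme gene, had 200.01 and 265 CPM in the parental libraries and 256 and 204 CPM in the TRC libraries. Means of 233 ± 46.1 and 230 ± 36.7 CPM (SD, n = 2 each) gave a log2 fold change of −0.014 (SE 0.24, FDR = 0.98), with an interval from −0.48 to 0.45. *Oaz2* (ENSMUSG00000040652, chromosome 9 from 65668001 to 65690300, plus strand) had 72.7 and 56.5 CPM in the parental libraries and 129 and 67.5 CPM in TRCs. The TRC libraries differed from each other by a factor of 1.90 and TRC replicate 3 lay below parental replicate 1. The log2 fold change of *Oaz2* was 0.60 (SE 0.32, FDR = 0.161), and it turned on single libraries. It was 0.98 (FDR = 0.0186) without TRC replicate 3, 0.047 (FDR = 0.963) without TRC replicate 1 and 0.43 (FDR = 0.605) without parental replicate 3.

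*Azin1* (ENSMUSG00000037458, chromosome 15 from 38487427 to 38519266, minus strand), whose product frees ODC from antizyme, had 178 and 144.95 CPM in the parental libraries and 129 and 144.85 CPM in the TRC libraries. Parental replicate 3 and TRC replicate 3 were thus nearly equal. The log2 fold change was −0.24 (SE 0.21, FDR = 0.548), with an interval from −0.65 to 0.17. The level of *Oaz1* message relative to that of *Odc1* was higher in TRCs. This ratio restates the lower *Odc1*, since *Oaz1* itself had a log2 fold change of −0.014. *Oaz1* stood at 0.876 and 0.647 times *Odc1* per kilobase in the parental libraries, and at 1.93 and 1.16 times *Odc1* in the TRC libraries. The mean of this ratio was 0.762 ± 0.16 in parental cells and 1.55 ± 0.54 in TRCs (SD, n = 2 each), 2.03-fold higher, and the groups did not overlap. The ratio was not tested, and 60.6% of single genes tested did not overlap either.

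Antizyme protein is made only when the ribosome changes frame at the end of a short first reading frame, a shift that polyamines promote. The sites of *Oaz1* and *Oaz2*, read from GENCODE transcripts, are shown because the level of their message does not give the level of antizyme. Capitals mark the site with its stop codon TGA, and the same letters also occur once more in other *Oaz2* transcripts.
*Oaz1*: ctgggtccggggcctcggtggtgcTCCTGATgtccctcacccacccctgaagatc
*Oaz2*: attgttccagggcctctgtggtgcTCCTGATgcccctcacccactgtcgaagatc

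On the catabolic side, *Sat1* (ENSMUSG00000025283, chromosome X from 155213132 to 155216449, minus strand), the gene of the acetyltransferase that polyamines themselves induce, had 78.3 and 86.9 CPM in the parental libraries and 89.5 and 66.4 CPM in the TRC libraries. The groups overlapped fully. Its log2 fold change was −0.083 (SE 0.24, FDR = 0.862), with an interval from −0.54 to 0.38. Relative to *Odc1* per kilobase, *Sat1* stood at 0.641 and 0.396 in the parental libraries and at 1.26 and 0.706 in TRCs. This ratio, which was not tested, restates the lower *Odc1*, since *Sat1* itself had a log2 fold change of −0.083.

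*Smox* (ENSMUSG00000027333, chromosome 2 from 131491496 to 131525922, plus strand), the gene of spermine oxidase, had 20.2 and 19.4 CPM in the parental libraries and 37.6 and 27.5 CPM in the TRC libraries. Both TRC libraries lay above both parental libraries. The log2 fold change was 0.72 (SE 0.26), at an FDR of 0.0608 that misses the threshold, and over the other filters, scalings, dispersions and tests the FDR ranged from 0.0385 in DESeq2's Wald test, the only one of them under 0.05, to 0.136 with no filter. Without single libraries it ranged from 0.0835 to 0.548, the latter without TRC replicate 1 at a log2 fold change of 0.46. *Smox* was 0.209 and 0.127 times as abundant as *Srm* per kilobase in the parental libraries, and 1.10 and 0.688 times in the TRC libraries. The means were 0.168 ± 0.058 and 0.895 ± 0.29 (SD, n = 2 each). This ratio was not tested, and it takes in the lower *Srm*, at a log2 fold change of −1.75.

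*Mtap* (ENSMUSG00000062937, chromosome 4 from 89137122 to 89181081, plus strand), which returns methylthioadenosine to adenine and the methionine salvage route, had 264 and 366 CPM in the parental libraries. In TRC replicates 1 and 3 it had 182 and 199.8 CPM. Both TRC libraries lay below both parental libraries. *Mtap* fell from 315 ± 71.8 CPM to 191 ± 12.5 CPM (SD, n = 2 each), a log2 fold change of −0.72 (SE 0.23, FDR = 0.026) or 1.65-fold lower. The quasi-likelihood test gave an FDR of 0.0689. Its FDR was 0.354 without parental replicate 3, 0.237 without TRC replicate 1 and 0.122 without TRC replicate 3, with log2 fold changes of −0.47, −0.67 and −0.80.

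*Mtap* was expressed beside genes with no reads. In many tumors *Mtap* is lost together with the cell cycle inhibitor genes *Cdkn2a* and *Cdkn2b*, which follow it on the chromosome at distances of 93390 and 125218 bases. *Cdkn2a* and *Cdkn2b* had 0 counts in every library, where 3 counts correspond to between 0.0674 and 0.0849 CPM. *Mtap* had between 7579 and 12919 counts. Of 27 protein-coding genes within 1000000 bases of *Mtap*, many of them interferon genes, 19 had 0 counts in every library and 24 had at most 3. The exception with over 100 counts in every library was *Klhl9*. Whether the 0 counts reflect missing DNA was not tested, since these are RNA data.

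**Figure D3:**
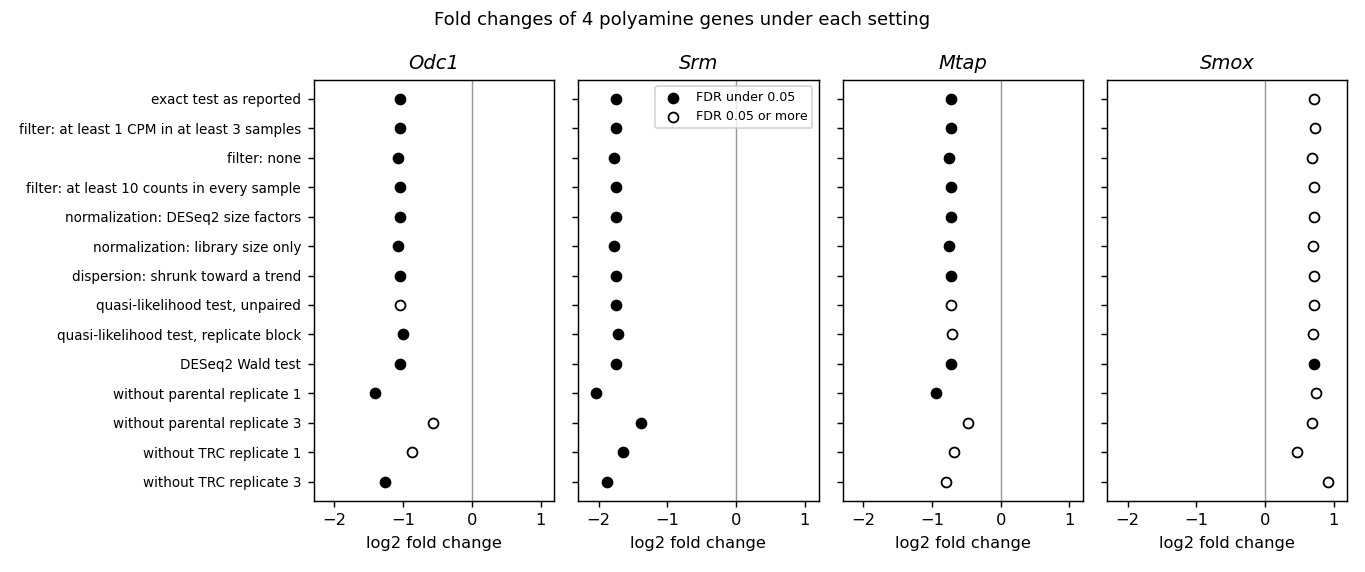
Log2 fold change of *Odc1*, *Srm*, *Mtap* and *Smox*, TRCs over parental cells, under the reported test and 13 other settings, with filled points for FDR under 0.05 and open points otherwise. *Srm* is filled throughout, *Odc1* is open under 3 settings, *Mtap* is open under 5 and *Smox* is filled under 1.

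Across the 10 genes, the groups did not overlap for 5, which were *Odc1*, *Srm*, *Azin1* and *Mtap* on the lower side and *Smox* on the higher, where 60.6% of all genes tested did not overlap. The spread between replicates was not even. Parental replicate 3 exceeded parental replicate 1 in all 4 synthesis genes, by factors from 1.33 for *Sms* to 1.80 for *Odc1*. The median log2 difference between these libraries was 0.57 for the synthesis genes and 0.0045 over all genes tested. TRC replicate 3 exceeded TRC replicate 1 by factors of 1.32 for *Odc1*, 1.57 for *Amd1* and 1.17 for *Srm*, but stood at 0.847 times it for *Sms*. The medians between the TRC libraries were 0.31 for the synthesis genes and 0.00091 over all genes tested. Alignments to several places made up 15.2% and 17.1% of all alignments in the parental libraries and 18.3% and 25.2% in the TRC libraries. Their part in the lower *Odc1* was not tested. In the longest *Odc1* transcript, 19.6% of the 100-base windows occur in other genes, mostly processed pseudogenes, and *Srm*, *Mtap* and *Smox* have 0 such windows.

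In descending order of mean CPM per kilobase of the longest transcript, the parental levels were 126 ± 50.9 for *Odc1*, 113 ± 25.7 for *Mtap*, 92.1 ± 18.3 for *Oaz1*, 61.1 ± 4.51 for *Sat1* and 54.2 ± 17.3 for *Srm* (SD, n = 2 each). *Amd1*, *Oaz2* and *Azin1* followed between 33.2 and 35.7, and *Sms* and *Smox* closed the order at 10.6 and 8.61. Neighbours from *Odc1* to *Oaz1*, *Sat1* with *Srm*, *Amd1* with *Oaz2* and *Azin1*, and *Sms* with *Smox*, differed by less than the larger SD of the pair. In TRCs *Oaz1* led at 91.2 ± 14.5, *Mtap* and *Odc1* followed at 68.3 ± 4.48 and 61.1 ± 12.01, *Sat1* and *Oaz2* at 57.7 and 53.2, and *Srm* stood at 16.1 ± 1.82, beside *Smox* at 14.2 ± 3.10 and *Sms* at 11.6 ± 1.35 (SD, n = 2 each). This order depended on the length used. With the union of exons, parental *Mtap*, *Oaz1* and *Odc1* stood at 97.6, 90.9 and 81.9, and *Sat1* at 29.8 came after *Srm* at 45.4 and *Amd1* at 32.3.

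Promoter windows of 300 bases around the start site were found in RefSeq (GRCm38.p6) for 8 of the 10 genes, and not for *Srm* and *Azin1*. They were searched on both strands for the E-box CACGTG, which MYC and its partners bind, and for ACGTG or GCGTG, the core of the hypoxia response element. CACGTG contains ACGTG, so every E-box also counts as a core. Of 32851 promoters of the same length, 7.15% hold the E-box and 43.8% a core. The E-box was found for 1 of the 8 genes, *Sms*, at position −196 from a start site, and a core for 4 genes, *Odc1*, *Amd1*, *Sms* and *Oaz1*. The 8 genes had 9 windows, whereas the shares over all promoters are per window. Sequence farther from the start site was not searched, so motifs there would be missed. Shown are the windows of the downregulated genes *Odc1*, with 3 cores and 78.0% G and C, and *Mtap*, with 0 cores and 57.0% G and C, and that of *Sms* with the E-box. Capitals mark the motifs. The *Odc1* window is chr12:17544623-17544922 on the plus strand, that of *Mtap* chr4:89137120-89137419 on the plus strand, and that of *Sms* chrX:157492238-157492537 on the minus strand.
*Odc1* promoter: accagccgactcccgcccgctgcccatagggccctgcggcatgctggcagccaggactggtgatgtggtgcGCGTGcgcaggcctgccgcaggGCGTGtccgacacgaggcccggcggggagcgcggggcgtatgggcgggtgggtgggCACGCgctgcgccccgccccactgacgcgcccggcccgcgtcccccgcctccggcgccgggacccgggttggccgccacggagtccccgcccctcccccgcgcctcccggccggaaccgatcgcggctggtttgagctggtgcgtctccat
*Mtap* promoter: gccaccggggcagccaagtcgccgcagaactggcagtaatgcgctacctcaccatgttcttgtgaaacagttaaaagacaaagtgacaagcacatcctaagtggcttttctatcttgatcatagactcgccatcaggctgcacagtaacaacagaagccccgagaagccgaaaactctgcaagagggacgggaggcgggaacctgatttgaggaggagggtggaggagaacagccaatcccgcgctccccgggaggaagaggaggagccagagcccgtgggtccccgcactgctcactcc
*Sms* promoter: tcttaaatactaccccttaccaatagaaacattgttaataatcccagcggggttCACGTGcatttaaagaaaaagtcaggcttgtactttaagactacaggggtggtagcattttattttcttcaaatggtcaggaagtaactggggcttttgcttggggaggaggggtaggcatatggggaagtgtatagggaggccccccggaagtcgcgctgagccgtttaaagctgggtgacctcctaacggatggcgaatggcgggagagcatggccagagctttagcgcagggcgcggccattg

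Genes around the pathway were taken from lists of 45 genes in all, of which 35 were tested. Of these, 6 were upregulated and 5 downregulated, with a median log2 fold change of −0.14. Over all genes tested, 8.81% were upregulated and 7.05% downregulated. *Slc7a1*, the main importer of arginine and ornithine, fell from 458 ± 67.2 to 237 ± 46.4 CPM (SD, n = 2 each), a log2 fold change of −0.95 (SE 0.23, FDR = 0.0023), and without TRC replicate 1 its FDR was 0.134. Of the other genes for arginine and ornithine supply, *Arg1*, *Agmat* and *Slc7a2* had at most 2 counts in every library, and *Ass1* (log2 fold change −0.87, FDR = 0.0605), *Asl*, *Oat* and *Aldh18a1* did not pass the test.

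In the methionine cycle and the salvage route that *Mtap* feeds, 3 of 10 genes were downregulated and 0 upregulated, with a median of −0.25. Over all genes tested, 7.05% were downregulated. *Mat2a*, which makes S-adenosylmethionine, fell from 547 ± 30.01 to 322 ± 36.5 CPM (SD, n = 2 each), a log2 fold change of −0.77 (SE 0.20, FDR = 0.0107). *Ahcy*, which clears S-adenosylhomocysteine, had a log2 fold change of −0.78 (FDR = 0.023), and *Enoph1*, an enzyme of methionine salvage, one of −0.86 (FDR = 0.0366). The quasi-likelihood test ended the calls of *Ahcy* and *Enoph1*, with FDR of 0.0778 and 0.0762. *Mat2b*, *Mtr*, *Mtrr*, *Mri1*, *Apip*, *Adi1* and *Got1* lay between −0.35 and 0.17 and did not pass. Leaving out parental replicate 3 moved *Ahcy* to −0.39 (FDR = 0.433) and *Enoph1* to −0.50 (FDR = 0.474), and it moved *Mat2a* to −0.71 (FDR = 0.107). Without TRC replicate 1 the FDR was 0.203 for *Ahcy* and 0.246 for *Enoph1*, and without TRC replicate 3 it was 0.165 for *Ahcy*, 0.193 for *Enoph1* and 0.181 for *Mat2a*.

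Spermidine is also the donor for hypusine, the modified lysine that activates the translation factor eIF5A. *Eif5a*, the gene of its widely expressed form, had 889 and 1324 CPM in the parental libraries and 570 and 769 CPM in the TRC libraries. Its log2 fold change was −0.72 (SE 0.26, FDR = 0.0457), a call that the quasi-likelihood test did not make (FDR = 0.126) and that was lost without parental replicate 3 (log2 fold change −0.41, FDR = 0.505), TRC replicate 1 (−0.54, FDR = 0.402) or TRC replicate 3 (−0.96, FDR = 0.0636). The enzymes of the modification, *Dhps* and *Dohh*, and the isoform gene *Eif5a2* had log2 fold changes of −0.23, −0.73 and 0.41 and did not pass.

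In the list for polyamine transport, 3 of 6 genes tested were upregulated and 0 downregulated. Over all genes tested, 8.81% were upregulated. *Atp13a2*, a lysosomal polyamine exporter, rose from 285 ± 2.21 to 499.7 ± 31.1 CPM (SD, n = 2 each), a log2 fold change of 0.81 (SE 0.18, FDR = 0.00562). *Gpc1*, a cell surface proteoglycan, rose from 246 ± 25.8 to 484 ± 44.6 CPM (SD, n = 2 each), a log2 fold change of 0.98 (SE 0.20, FDR = 0.000773). *Cav1*, the main protein of caveolae, rose from 6.57 ± 3.20 to 38.7 ± 20.7 CPM (SD, n = 2 each), a log2 fold change of 2.56 (SE 0.43, FDR = 5.81e-07). For *Atp13a2* the FDR was 0.0723 without parental replicate 3 and 0.113 without TRC replicate 1, and that of *Gpc1* was 0.0512 without parental replicate 3. *Cav1* kept its call without each library, with a log2 fold change of 1.86 without TRC replicate 3 and 3.17 without parental replicate 1. *Gpc1* and *Cav1* have many roles in the membrane besides those tied to polyamine transport. Whether polyamine transport changed, and in which direction, was not tested. The related transporter gene *Atp13a3* had a log2 fold change of −0.14 and did not pass, nor did *Slc3a2* and *Slc18b1*, and *Slc12a8* had at most 2 counts per library.

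Of the close relatives of the 10 genes, *Azin2*, a second antizyme inhibitor, was upregulated at low level. It had 1.82 and 0.849 CPM in the parental libraries and 3.87 and 6.03 CPM in the TRC libraries, a log2 fold change of 1.88 (SE 0.56, FDR = 0.0044), and its FDR was 0.055 in the quasi-likelihood test and 0.118 and 0.146 without parental replicate 3 and without TRC replicate 3. Without parental replicate 1 the log2 fold change was 2.54. The oxidase gene *Paox* and *Sat2* had log2 fold changes of 0.53 and 1.08 and did not pass. *Oaz3*, the antizyme of the testis, and *Satl1* had at most 1 count per library.

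Among 7 genes of the MYC network tested, *Myc* itself had 78.8 and 86.9 CPM in the parental libraries and 73.6 and 46.6 CPM in the TRC libraries, and its log2 fold change was −0.46 (SE 0.27, FDR = 0.227). For the partner gene *Max* there was a log2 fold change of −0.50 (FDR = 0.105). *Mxd4* and *Mxi1*, whose products compete with MYC for MAX, rose from 49.8 ± 9.14 to 178 ± 3.28 CPM and from 46.0 ± 3.78 to 164 ± 50.4 CPM (SD, n = 2 each), each with a log2 fold change of 1.83 and FDR of 7.49e-12 and 6.81e-10. *Mnt*, *Mxd1* and *Mxd3* did not pass, and *Mycn* and *Mycl* had at most 5 counts per library.

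**Figure D4:**
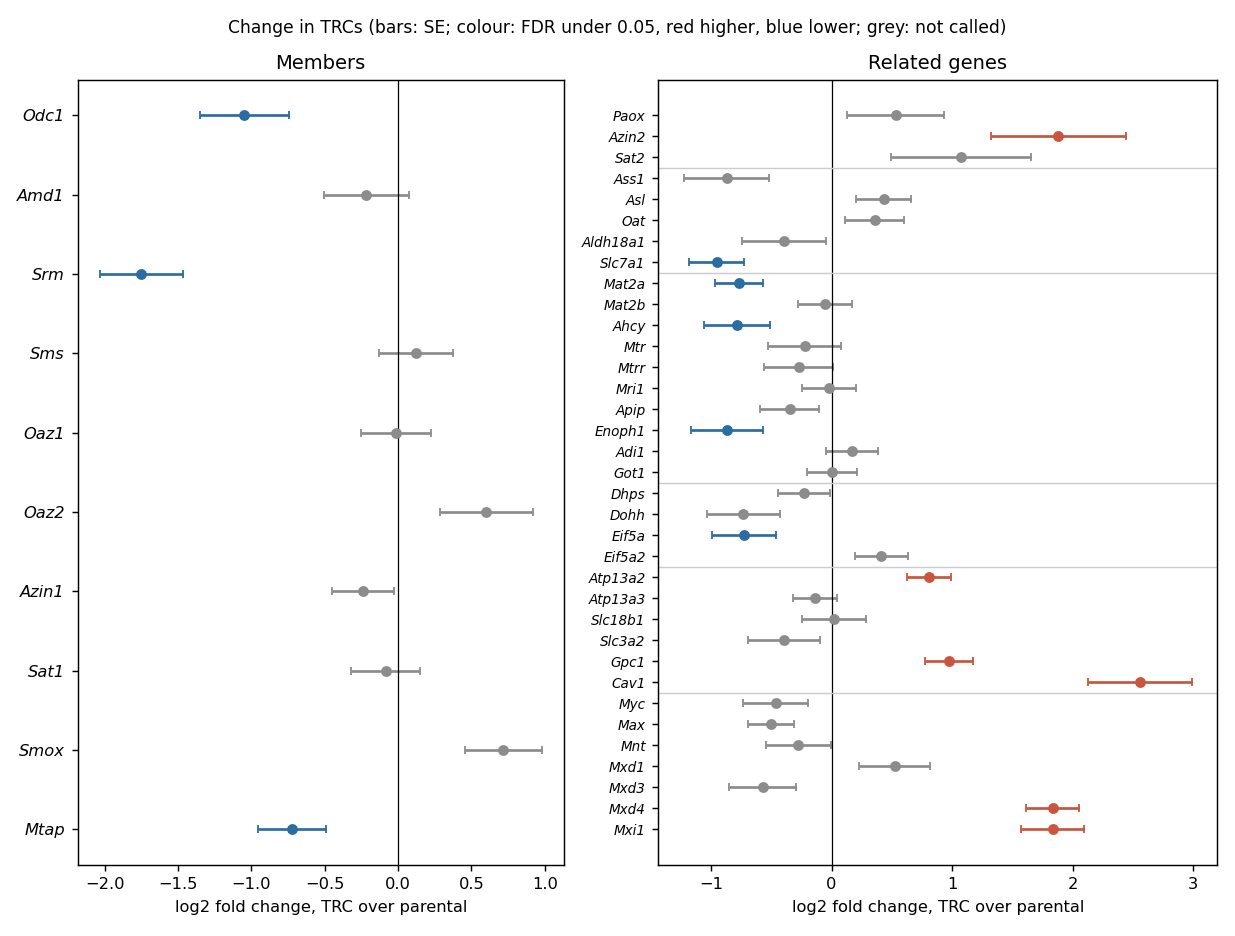
Log2 fold change of TRCs over parental cells for the 10 polyamine genes and 35 related genes tested, with the SE from DESeq2 as bars and colour for FDR under 0.05. *Odc1*, *Srm* and *Mtap* are lower among the 10, and the related genes hold 6 higher and 5 lower, with gray lines between the lists.

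The libraries held between 35948295 and 43511554 counts on genes. The 8 melanocyte markers, among them *Tyrp1*, *Dct*, *Pmel* and *Sox10*, summed to 18933 and 15734 CPM in the parental libraries and to 23995 and 26688 CPM in TRCs. All 8 had a log2 fold change above 0, with a median of 0.41. Over all genes tested, 5773 of 11483 lay above 0 and 8.81% were called higher. Among the 8 markers, 1 gene, *Dct*, passed the exact test (log2 fold change 1.08, FDR = 0.000307). It did not pass the quasi-likelihood test without pairing (FDR = 0.0704). The part of these markers in the results above was not tested. Of 8 leukocyte markers, *Ptprc*, *Adgre1*, *Itgam* and *Cd3e* had 0 counts in every library. *Cd68* passed the filter, with 183 and 62 counts in the parental libraries and 66 and 77 in TRCs, and was not called (FDR = 0.344). *Lyz2* had between 3 and 36 counts, *Cd79a* between 4 and 10 and *Csf1r* at most 2. The list summed to between 2.15 and 5.19 CPM in parental cells and between 1.87 and 2.23 CPM in TRCs. The 8 fibroblast and vessel markers summed to between 2.21 and 4.79 CPM in parental cells and between 2.14 and 4.32 CPM in TRCs. *Cdh5* and *Acta2* had 0 counts in every library, and *Col3a1*, *Dcn*, *Lum* and *Pecam1* at most 6. *Col1a1*, with between 27 and 144 counts, and *Pdgfra*, with between 44 and 76, passed the filter and were not called. Only counting error is covered by the floors given here.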

How the data were processed

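Stranded RNA-seq libraries of parental B16F1 cells and TRCs (2 each) were trimmed with Trimmomatic 0.35, aligned to GRCm38 with TopHat2 2.1.0 and counted with htseq-count by the authors. The authors deposited raw counts for each gene of Ensembl's annotation, whose strand setting is not given in the sources used here. Genes with less than 1 CPM in at least 3 libraries were removed, leaving 11483. This number differs from the study's own, so its set of genes tested was not reproduced exactly. TMM scaling and edgeR's exact test with tagwise dispersions (edgeR 4.0.16, R 4.3.3, prior count 0.125) followed the study's methods. FDR is Benjamini-Hochberg over all genes tested, with a threshold of 0.05. SEs came from DESeq2 1.42.0. The 95% intervals set these SEs around the log2 fold changes of edgeR's exact test. The tests were checked on simulated counts drawn with dispersions fitted to these libraries, so the check cannot show how well that model holds here. Symbols, positions and lengths came from GENCODE M21. The members and lists were chosen with earlier results of these data known. Text names all members, called genes of the lists, and genes near 0 counts. Other genes named with values were chosen after their values were seen. No source says whether libraries came from separate cultures, so p-values measure the spread between libraries only. Alternatives were other filters, scalings, dispersions and tests, and leaving out each library.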

Additional observations from a re-analysis of the deposited data

Results flagged for a closer look

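*Arg2*, the mitochondrial arginase that makes ornithine, was removed by the filter on low counts. It was flagged because both TRC libraries lay above both parental libraries, so this position is no separate result. Its counts were 8 and 1 in the parental libraries against 28 and 19 in TRCs, or 0.673 and 0.456 CPM in TRCs against 0.18 and 0.0283 CPM. With no filter its FDR in edgeR's exact test was 0.0358, for a gene picked on these same values.

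Alignments to several places, which were assigned to no gene, made up 18.3% and 25.2% of alignments in TRC replicates 1 and 3, above the 15.2% and 17.1% of the parental libraries. Of the 10 genes, *Amd1*, *Sms*, *Odc1* and *Oaz1* share most with other genes, with 76.4%, 27.7%, 19.6% and 11.2% of their 100-base windows, and the part of these alignments in their values was not tested.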

How the results depend on the processing

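Of the 10 genes, *Srm* passed under every filter, scaling, dispersion and test tried and without each library. The calls of *Odc1* and *Mtap* each ended under some. The members called lower numbered 3 in the exact test and 1 in the quasi-likelihood test without pairing, and the members called higher 0 and, with DESeq2's Wald test, 1 (*Smox*). Without each library in turn, members called lower ranged from 1 to 3 and members called higher from 0 to 1. For the related lists, genes called lower numbered 5, but 3 with no filter, 2 in the unpaired quasi-likelihood test and from 1 to 7 without single libraries, and genes called higher 6, or from 3 to 7. These fits have 1 library in a group, which is assumed to vary like the other group.

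Across genes, the deviations of samples with the same number correlated with r = 0.027. No label says whether such samples share more than their number, and 2 libraries per group cannot decide it. With the replicate block the quasi-likelihood test called 2 members and 0 of the related genes lower. *Odc1* and *Srm* had FDR of 0.0372 and 0.0176 and *Mtap* 0.0614. In all it called 785 genes, against 1054 without the block and 1822 in the exact test, which itself called 863, 773 and 773 without parental replicate 3, TRC replicate 1 and TRC replicate 3.

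With the union of exons as length instead of the longest transcript, mean ratios per kilobase in parental cells and TRCs were 1.16 and 2.36 for *Oaz1* to *Odc1*, 6.81 and 1.91 for *Srm* to *Sms* and 0.247 and 0.356 for *Oaz2* to *Oaz1*. The shares of the synthesis genes were then 48.7% and 45.0% for *Odc1*, 19.8% and 31.2% for *Amd1* and 27.4% and 15.5% for *Srm*, and 4.06% in parental cells for *Sms*. The direction between groups does not depend on this choice for the ratios. Depth did not limit the 10 genes, which had at least 686 counts in each library.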
